A study of Rattus norvegicus with 16 samples.

Results

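Integrins are receptors made of 1 alpha and 1 beta subunit that span the cell membrane and hold cells to the extracellular matrix or to other cells. The genes described here are the integrin subunits together with proteins of the focal adhesion, the plaque that ties an integrin's inner end to actin. They were chosen by name: every gene symbol made of Itga or Itgb and a number or letters, except the binding proteins Itgb1bp and Itgb3bp, and 17 named plaque and mechanosensing genes. Of the 17085 genes in the deposited tables, 35 matched. These were 14 alpha subunits, 7 beta subunits, Itgbl1 (a secreted protein that resembles a beta subunit), 12 plaque proteins and Yap1. The plaque genes Parvb, Flna and Actn1 and the ion channel gene Piezo1 were also named by the rule and are not analysed here. The low-count filter kept 33 of the 35 for testing, and Itgb6 and Itgb8, at 0 to 1.35 CPM in every library, were left out. Itgad and Itgam had identical counts in all 16 libraries, so their separate levels are uncertain and they are given as Itgad/Itgam. In every count of genes below they enter as 2 genes, although they hold the same values.

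The tissue was rat heart labelled as infarct zone, 4 libraries from each of 4 groups, with bulk mRNA sequenced. Sham rats were the surgical controls and their tissue carries the same infarct zone label. MI rats had the left anterior descending coronary artery tied off, MI_soft rats had the ligation and a soft hydrogel, and MI_stiff rats had the ligation and a stiff hydrogel, which the series title describes as injected into the heart muscle. The strain, age, time after ligation, gel composition and any vehicle injection in MI were not given in the sources used, and the extraction protocol also mentions MI/R, which leaves it unclear whether flow was restored. Nothing in the labels states that each library is a different animal, so a p-value here speaks only of the variation among these libraries, some of which may be technical.

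Libraries held 10940685 to 14456188 counts. MI 2, MI 3, MI 4 and MI_soft 4 stood apart, with 10470, 10958, 11283 and 11785 genes above 0 against 12019 to 12820 in the other libraries, and MI 1 (12820) stood apart from the rest of its own group. Calls that turned on MI 1, on MI_soft 4 or on the 4 libraries with few genes are named beside the results. Summed CPM of 10 fibroblast markers was 2390 to 3120 in Sham and 13010 to 20340 in MI, and that of 9 cardiomyocyte markers was 65720 to 78110 in Sham and 17720 to 27810 in MI, so the tissue held both cell types in every library. In bulk tissue fewer cells of a type and less RNA per cell cannot be told apart.

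As background, alpha subunits decide much of what an integrin binds. Itga7, Itga6 and Itga3 pair with Itgb1 to bind laminin, Itga10 and Itga11 pair with Itgb1 to bind collagen, Itgav and Itga8 take part in receptors for the RGD motif of fibronectin and related proteins, and Itgb2 with Itgam, Itgax or Itgal forms the leukocyte integrins. Talins and kindlins (Tln1, Tln2, Fermt2) bind the beta tail and switch the integrin on, vinculin (Vcl) reinforces the link to actin, and the complex of Ilk with a PINCH protein (Lims1 or Lims2) and a parvin (Parva) holds the plaque together. In heart muscle these proteins sit at costameres, where the contractile apparatus is joined to the matrix. Yap1 is a transcriptional co-activator that enters the nucleus when cells sense a stiff substrate.

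The comparison of stiff with soft gel asks whether the mechanical property of the injected material went with a difference in this machinery. None of the 33 tested genes differed between MI_stiff and MI_soft at an adjusted p under 0.05 by edgeR's quasi-likelihood test, where 0.0967% of all 11376 tested genes did. At an unadjusted p under 0.05 the counts were 0 genes higher and 5 lower with the stiff gel (Zyx, Itgb5, Itga11, Lims2 and Itga8), where 5.14% of all genes were higher and 9.19% lower at that level. DESeq2 called 1 gene (Zyx, lower), limma-voom 0, and limma-voom with sample quality weights 3 (Zyx, Itga8 and Itgbl1, lower). The share of all genes called by these other methods is not given here. Of the 33 fitted differences, 13 were positive and 20 negative, with a median log2 difference of -0.18 against 0.01 over all tested genes.

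Zyxin (Zyx), a LIM protein that moves to actin fibres under tension, had the smallest p between the gels. It stood at 226, 264, 229 and 475 CPM in MI_soft libraries 1 to 4 and at 179, 150, 168 and 162 CPM in MI_stiff. In Sham it stood at 96.8, 101, 99.9 and 89.7 CPM and in MI at 244, 347, 169 and 258 CPM. Every MI_stiff library was below every MI_soft library and above every Sham library, and MI_soft 4 was the highest of all 16. The fitted difference between stiff and soft gel was -0.86 ± 0.24 (log2, SE; 95% interval -1.37 to -0.35; edgeR adjusted p = 0.138, and 0.0297 to 0.41 over 30 alternatives). Without the 4 libraries with few genes detected it was -0.53 ± 0.13 with an edgeR adjusted p of 0.0414, a smaller difference with less spread.

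Integrin beta 5 (Itgb5), the partner of Itgav in a vitronectin receptor, was likewise lower with the stiff than with the soft gel in every library. Its level was 94.0, 110, 93.2 and 97.7 CPM in Sham, 193, 236, 152 and 228 in MI, 181, 163, 197 and 224 in MI_soft, and 124, 125, 103 and 160 in MI_stiff. MI_stiff and Sham overlapped, as did MI and MI_soft. The log2 difference between the gels was -0.58 ± 0.19 (95% interval -0.97 to -0.18; edgeR adjusted p = 0.194, and 0.051 to 0.541 over 30 alternatives).

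The collagen receptor subunit Itga11, which is known from fibroblasts, stood at 12.4, 31.9, 22.1 and 19.6 CPM in MI_soft and 8.96, 13.8, 10.6 and 9.13 in MI_stiff. One MI_stiff library exceeded one MI_soft library, so the groups overlapped. The log2 difference was -1.02 ± 0.44 (edgeR adjusted p = 0.31, and 0.0866 to 0.586 over the alternatives). Itga8, whose receptor with Itgb1 binds RGD ligands and which fibroblasts and smooth muscle express, stood at 35.0, 46.3, 52.2 and 14.04 CPM in MI_soft and 24.4, 26.4, 16.1 and 17.7 in MI_stiff. Here MI_soft 4 was the lowest of the 8 libraries and the other MI_soft libraries were all above MI_stiff. The fitted difference was -0.80 ± 0.37 (edgeR adjusted p = 0.336), and without the 4 libraries with few genes detected it was -1.07 ± 0.23 with an edgeR adjusted p of 0.0291, within 0.0134 to 0.7 over all 30 alternatives.

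Itgbl1 followed the pattern of Itga8. Its level was 97.7, 107, 114 and 52.2 CPM in MI_soft and 69.4, 79.1, 55.5 and 62.1 in MI_stiff, with MI_soft 4 again below all MI_stiff libraries. The difference was -0.48 ± 0.23 (edgeR adjusted p = 0.357), and -0.67 ± 0.15 without the 4 libraries (edgeR adjusted p = 0.0291, within 0.0161 to 0.767 over the alternatives).

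In Lims2 (PINCH2) the library MI_soft 4 stood on the other side. Lims2 was at 157, 165, 126 and 324 CPM in MI_soft and 142, 136, 130 and 121 in MI_stiff, and MI_soft 4 lay inside the Sham range of 267.6 to 384.7 CPM. The difference of -0.55 ± 0.24 (edgeR adjusted p = 0.321) became -0.16 ± 0.17 without that library (edgeR adjusted p = 0.85, the largest of 30 alternatives, which began at 0.183). Itgb7, a leukocyte subunit that lymphocytes use for homing, was at 5.30, 3.95, 3.502 and 14.2 CPM in MI_soft and 0.383, 3.38, 1.76 and 3.22 in MI_stiff. In Sham it was at 1.63, 1.51, 1.01 and 1.11 CPM and in MI at 9.96, 6.37, 0.0938 and 6.11. All MI_stiff libraries were below all MI_soft libraries at these low levels, with a log2 difference of -1.62 ± 0.79 (edgeR adjusted p = 0.363, and 0.194 to 0.805 over 29 alternatives). Summed CPM of 12 lymphocyte markers was 106.5 to 369 in MI_soft and 21.2 to 58.4 in MI_stiff, and its part in the Itgb7 values was not tested.

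Itga6, the laminin receptor subunit, was the one of these 8 genes with a positive difference. It stood at 23.6, 13.9, 22.6 and 1.42 CPM in MI_soft and 9.49, 50.7, 41.1 and 36.2 in MI_stiff. Of the MI_stiff libraries 3 lay above every MI_soft library and MI_stiff 1 lay inside the MI_soft range. The log2 difference was 1.16 ± 0.62 (95% interval -0.15 to 2.46; edgeR adjusted p = 0.403, and 0.264 to 0.702 over the alternatives).

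Over all 33 genes, the libraries of the 2 gel groups did not overlap for 1 gene that was higher with the stiff gel (Ptk2) and 3 that were lower (Zyx, Itgb5 and Itgb7). Of all tested genes 4.47% were apart and higher and 6.87% apart and lower. Ptk2 encodes focal adhesion kinase and lay at 56.75 to 62.19 CPM in MI_soft and 63.46 to 69.97 in MI_stiff, a log2 difference of 0.17 ± 0.16 (edgeR adjusted p = 0.649). Summed CPM of 8 smooth muscle and pericyte markers was 3148 to 5198 in MI_soft and 1904 to 2061 in MI_stiff, and the fibroblast sum was 12420 to 17400 and 9979 to 15620. Their part in the lower values of Zyx, Itgb5, Itga8, Itga11 and Itgbl1 was not tested.

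**Figure D1:**
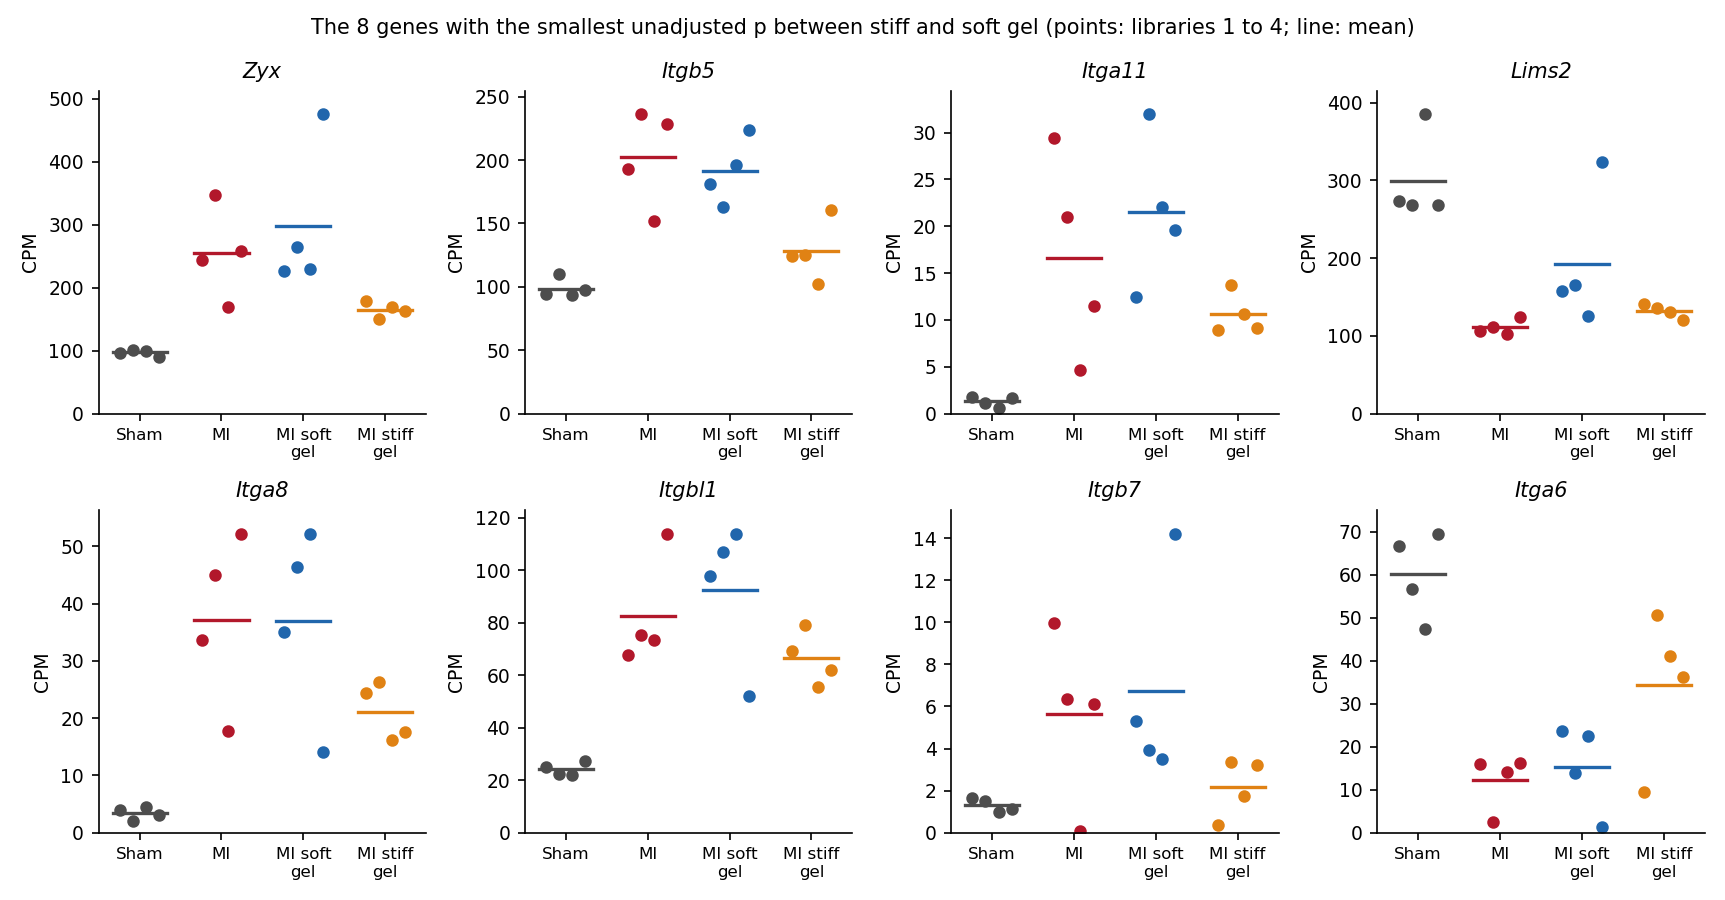
CPM (vertical axis, from 0) of the 8 genes with the smallest unadjusted p between stiff and soft gel, in each of the 16 libraries by group; points are libraries 1 to 4 from left to right and the line is the group mean. The 4 MI_stiff points of Zyx (150 to 179 CPM) and of Itgb5 (103 to 160 CPM) lie below all MI_soft points. The fourth MI_soft point stands above the other MI_soft points in Zyx, Itgb5, Itgb7 and Lims2 and below them in Itga8, Itgbl1 and Itga6.

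The start regions of 4 of these genes are shown because the genes had the smallest p between the gels and a sequence was at hand. They were chosen after their values were seen. Each is the 250 bases before an annotated start on the GRCr8 assembly from RefSeq, in the direction of transcription, in lower case with matches to GGAATG (the TEAD motif, the site through which Yap1 acts) or GAGGAAG (a motif of ETS-type factors such as PU.1) on either strand in capitals. The Zyx window lies at chr4:72203750-72203999 on the plus strand (the first of its 2 starts; the other held neither motif), Lims2 at chr18:23837454-23837703 on the plus strand (the second of its 2 starts; the other held neither motif), Itga11 at chr8:72041182-72041431 on the plus strand and Itga8 at chr17:80410634-80410883 on the minus strand.
Zyx: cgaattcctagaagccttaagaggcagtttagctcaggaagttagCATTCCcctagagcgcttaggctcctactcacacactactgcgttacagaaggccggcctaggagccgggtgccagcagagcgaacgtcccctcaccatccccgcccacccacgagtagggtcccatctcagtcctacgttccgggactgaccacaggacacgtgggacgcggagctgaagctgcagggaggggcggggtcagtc
Lims2: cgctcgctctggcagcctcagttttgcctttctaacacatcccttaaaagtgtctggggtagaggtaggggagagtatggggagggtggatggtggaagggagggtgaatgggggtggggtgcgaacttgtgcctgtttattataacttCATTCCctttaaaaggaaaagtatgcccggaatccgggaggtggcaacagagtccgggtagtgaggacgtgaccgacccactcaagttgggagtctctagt
Itga11: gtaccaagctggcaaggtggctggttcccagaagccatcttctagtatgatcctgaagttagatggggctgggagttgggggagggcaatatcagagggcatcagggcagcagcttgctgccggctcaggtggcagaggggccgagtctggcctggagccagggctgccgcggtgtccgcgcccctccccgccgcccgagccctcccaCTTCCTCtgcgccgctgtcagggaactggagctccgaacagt
Itga8: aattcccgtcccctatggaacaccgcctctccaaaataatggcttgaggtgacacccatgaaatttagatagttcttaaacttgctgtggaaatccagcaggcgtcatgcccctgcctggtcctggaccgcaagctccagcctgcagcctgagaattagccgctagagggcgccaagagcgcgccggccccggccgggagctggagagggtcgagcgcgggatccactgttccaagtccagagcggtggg

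The Zyx and Lims2 windows each held 1 GGAATG on the opposite strand (written CATTCC), the Itga11 window 1 GAGGAAG on the opposite strand (written CTTCCTC), and the Itga8 window neither. Of the 35 genes 25 had a window. GGAATG was in 8 of these 25 (32%: Itga10, Itga3, Itgb1, Itgb8, Lims2, Vcl, Yap1 and Zyx) and in 12.9% of all 27457 genes with a window. Of 7 other motifs searched on both strands, GGGCGG (bound by Sp1) was in 52% of the 25 against 33.5% of all, GAGGAAG in 20% against 11%, the E-box CACGTG in 12% against 6.18%, the GATA motif AGATAA in 4% against 10.9%, the AP-1 motif TGANTCA in 4% against 6.99% and the CArG box of serum response factor in 4% against 1.62%. The SMAD palindrome GTCTAGAC was in 0 of the 25 and in 0.2% of all. GGAATG can overlap an ETS core and GGGCGG windows are rich in G and C. A match is a run of letters and not a measured binding site.

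Ligation compared with Sham gives the size of the response to which the gels were added. In MI against Sham 19 of the 33 genes were called by edgeR, 11 higher and 8 lower, where 20.2% of all tested genes were higher and 16.4% lower. The genes that rose were the collagen receptor subunits Itga10 and Itga11, Itga8, Itgbl1, Itgb4, Itgb5, Itgb1, and the plaque genes Zyx, Ilk, Actn4 and Pxn. The genes that fell were the laminin receptor subunits Itga7, Itga6 and Itga3, Itga9, both PINCH genes Lims1 and Lims2, Tln2 and Yap1. DESeq2 called 20 and limma-voom 18, for which the share of all genes is not given here.

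**Figure D2:**
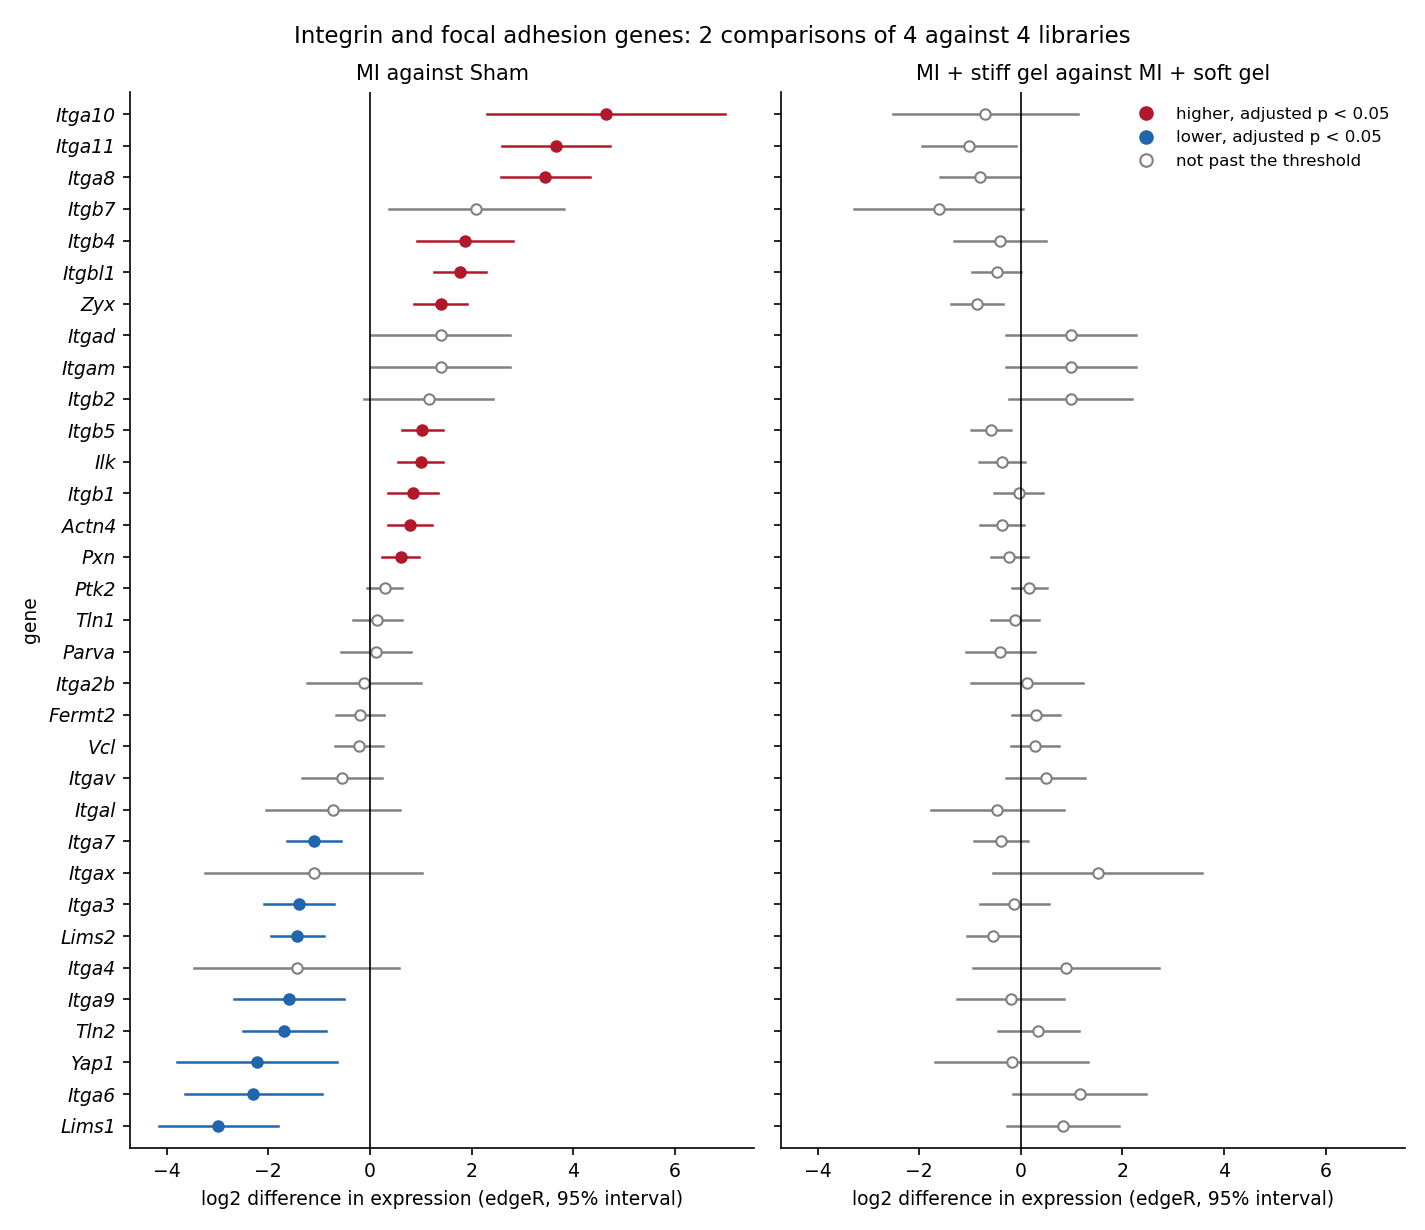
Fitted log2 difference (horizontal axis) of each of the 33 tested genes (vertical axis, ordered by MI against Sham) with its 95% interval, for MI against Sham (left) and stiff against soft gel (right); filled points passed an adjusted p of 0.05. The left panel has 11 filled points above 0 and 8 below, and the right panel has none, with estimates between -1.62 and 1.51.

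Among the matrix receptors that rose, Itga11 stood at 1.79, 1.14, 0.621 and 1.66 CPM in Sham and 29.4, 21.0, 4.69 and 11.48 in MI. No library of the 2 groups overlapped and the log2 difference was 3.67 ± 0.50 (12.7-fold; edgeR adjusted p = 3.7e-05). Itga10, the other collagen receptor subunit among the genes described here, is best known from cartilage. Its level was 0.233, 0.0946, 0.0776 and 0 CPM in Sham and 1.78, 2.93, 0 and 6.47 in MI. It was at 1.72, 1.597, 7.14 and 4.51 CPM in MI_soft and 3.14, 3.22, 1.55 and 1.34 in MI_stiff, all above Sham. MI 3 had no count for it, so MI and Sham overlapped. The difference was 4.65 ± 1.12 (edgeR adjusted p = 0.00383) at under 7 CPM in all MI libraries, and its call was lost in 2 of 27 alternatives.

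Itga8 was at 3.97, 1.99, 4.50 and 3.09 CPM in Sham and 33.7, 45.1, 17.7 and 52.2 in MI, 10.9-fold higher by the fit (log2 3.45 ± 0.42; edgeR adjusted p = 1.1e-05). Itgbl1 was at 24.9, 22.2, 22.1 and 27.3 CPM in Sham and 67.7, 75.4, 73.7 and 114 in MI (log2 1.78 ± 0.24; edgeR adjusted p = 3.2e-05). Both genes were above Sham in every MI library. The calls of Itga8, Itga11 and Itgbl1 held in each of 30 alternatives.

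Itgb4, the laminin-binding partner of Itga6 in epithelial hemidesmosomes, was at 11.8, 6.15, 13.6 and 11.01 CPM in Sham, 52.6, 61.0, 14.9 and 28.0 in MI, 15.4, 31.7, 19.0 and 38.5 in MI_soft, and 13.5, 37.0, 13.4 and 14.8 in MI_stiff. MI libraries were all above Sham, and MI_stiff 2 stood above the other MI_stiff libraries. The difference between MI and Sham was 1.88 ± 0.45 (edgeR adjusted p = 0.00373).

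Itgb1, the shared partner of most matrix-binding alpha subunits, was at 466, 500, 466 and 449 CPM in Sham and 551, 891, 887 and 1067 in MI. Every MI library was above Sham, with a log2 difference of 0.85 ± 0.23 (edgeR adjusted p = 0.00919). In the gel groups Itgb1 was at 765, 685, 867 and 397 CPM with the soft gel and 601, 765, 617 and 647 with the stiff gel. MI_soft 4 was below every Sham library, and the difference between the gels was -0.05 ± 0.23 (95% interval -0.53 to 0.44).

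The laminin-binding alpha subunits Itga7, Itga6 and Itga3 fell, while the laminin-binding Itgb4 rose as given above. Itga7, the main laminin receptor subunit of striated muscle, was at 357, 330, 403 and 286 CPM in Sham, 181, 183, 144 and 131 in MI, 162, 143, 169 and 348 in MI_soft, and 123, 178, 155 and 171 in MI_stiff. All libraries of the ligated groups except MI_soft 4 were below every Sham library. The difference between MI and Sham was -1.10 ± 0.25 (edgeR adjusted p = 0.00286).

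Itga6 was at 66.8, 56.8, 47.4 and 69.6 CPM in Sham and 16.1, 2.60, 14.1 and 16.2 in MI (log2 -2.29 ± 0.64; edgeR adjusted p = 0.01). Itga9, a receptor subunit for tenascin and osteopontin, was at 32.8, 19.7, 31.4 and 30.0 CPM in Sham and 20.4, 2.77, 5.72 and 8.75 in MI (log2 -1.59 ± 0.51; edgeR adjusted p = 0.0222). In both genes MI 2 was the lowest MI library, and it also had the fewest genes detected. In Itga9 MI 1 lay inside the Sham range, and the call was lost without MI 2 (edgeR adjusted p = 0.0538) and without MI 3 (edgeR adjusted p = 0.0559), within 0.00118 to 0.397 over 30 alternatives. In the gel groups Itga9 was at 26.7, 21.4, 29.3 and 5.60 CPM with the soft gel and 12.7, 27.5, 19.2 and 13.2 with the stiff gel, overlapping Sham in both.

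Both PINCH genes fell. Lims1 was at 40.2, 32.4, 24.7 and 38.1 CPM in Sham, 6.52, 1.93, 4.88 and 3.74 in MI, 10.2, 6.92, 9.12 and 0.752 in MI_soft, and 5.74, 19.0, 13.2 and 10.3 in MI_stiff. Every library of the ligated groups was below every Sham library. MI differed from Sham by -2.98 ± 0.56 (7.89-fold lower; edgeR adjusted p = 5.8e-04). Lims2 was at 274, 268, 385 and 268 CPM in Sham and 106, 112, 102 and 125 in MI, with a difference of -1.43 ± 0.25 (edgeR adjusted p = 2.9e-04). Both calls held in each of 30 alternatives.

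Their partner Ilk, a pseudokinase that bridges the beta tail to parvin, rose. Ilk was at 101, 109, 122 and 104 CPM in Sham, 153, 288, 215 and 215 in MI, 168, 188, 170 and 276 in MI_soft, and 188, 143, 133 and 155 in MI_stiff. All libraries of the ligated groups were above Sham. The difference between MI and Sham was 0.999 ± 0.21 (edgeR adjusted p = 0.00167). The third partner Parva was at 13.2 to 15.4 CPM in Sham and 5.36 to 21.0 in MI (log2 0.12 ± 0.33; edgeR adjusted p = 0.788).

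Of the genes that switch integrins on, Tln2, the talin enriched in striated muscle, was at 45.9, 40.4, 31.0 and 62.0 CPM in Sham, 23.5, 5.95, 15.5 and 10.6 in MI, 22.1, 22.7, 26.2 and 9.45 in MI_soft, and 16, 35.6, 27.0 and 23.6 in MI_stiff. MI lay below Sham in every library, at -1.69 ± 0.39 (edgeR adjusted p = 0.00283). The other talin, Tln1, was at 224 to 313 CPM in Sham and 248 to 392 in MI (log2 0.15 ± 0.23; edgeR adjusted p = 0.64). Fermt2 (kindlin-2) was at 256, 275, 229 and 242 CPM in Sham, 148, 207, 276 and 240 in MI, 171, 180, 193 and 95.3 in MI_soft, and 195, 229, 187 and 175 in MI_stiff. Vcl was at 363, 390, 338 and 340 CPM in Sham, 188, 260, 429 and 354 in MI, 206, 211, 223 and 166 in MI_soft, and 257, 293, 193 and 238 in MI_stiff. In Fermt2 and Vcl MI 1 was the lowest MI library and neither gene was called between MI and Sham (edgeR adjusted p = 0.502 and 0.465), while in MI_soft and in MI_stiff both were below every Sham library.

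Zyx rose by 1.39 ± 0.25 on the log2 scale in MI (edgeR adjusted p = 3.6e-04), Itgb5 by 1.03 ± 0.19 (edgeR adjusted p = 4.5e-04), Actn4 by 0.78 ± 0.21 (edgeR adjusted p = 0.00709) and Pxn by 0.61 ± 0.17 (edgeR adjusted p = 0.0109). Actn4 encodes a non-muscle alpha-actinin that bundles actin and Pxn encodes paxillin, an adaptor at the plaque's signalling layer. Actn4 lay at 107.5 to 164.4 CPM in Sham and 160.1 to 310.7 in MI, with overlap, and Pxn at 69.34 to 91.73 and 106.7 to 140.2, without. Itga3 fell by 1.39 ± 0.33 (edgeR adjusted p = 0.00354), from 17.6 to 21.51 CPM in Sham to 4.128 to 12.85 in MI. Itgav, the alpha subunit that partners Itgb5, lay at 12.19 to 20.13 CPM in Sham and 9.036 to 14.26 in MI (log2 -0.56 ± 0.37; edgeR adjusted p = 0.254). Itga2b, the platelet fibrinogen receptor subunit, lay at 1.632 to 3.09 and 0.6567 to 4.282 CPM (log2 -0.12 ± 0.53; edgeR adjusted p = 0.878). Neither was called in any of the 6 comparisons, and their libraries overlapped in each.

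Yap1 was at 56.1, 34.5, 47.8 and 50.6 CPM in Sham, 27.1, 0.586, 5.25 and 7.20 in MI, 24.5, 13.7, 29.2 and 2.93 in MI_soft, and 5.13, 19.3, 18.2 and 19.4 in MI_stiff. Every library of the ligated groups was below every Sham library, and within MI the levels spread from 0.586 in MI 2 to 27.1 in MI 1. MI differed from Sham by -2.22 ± 0.75 (edgeR adjusted p = 0.0269). The call was lost without MI 3 (edgeR adjusted p = 0.0646), MI 4 (0.0671) or Sham 1 (0.0529), within 0.00129 to 0.328 over 30 alternatives. Stiff and soft gel differed by -0.18 ± 0.72 (95% interval -1.69 to 1.32).

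Several of these calls were lost when the libraries with few genes detected were left out. That step also removes most MI libraries, so low detection and loss of libraries cannot be told apart. With MI 2, MI 3, MI 4 and MI_soft 4 left out, MI 1 is the only MI library and is assumed to vary like the other groups. In that fit Itga6 (log2 -1.88 ± 0.68; edgeR adjusted p = 0.059), Tln2 (-0.91 ± 0.38; 0.091), Itga3 (-0.54 ± 0.36; 0.291), Yap1 (-0.79 ± 0.56; 0.328) and Itga9 (-0.47 ± 0.38; 0.397) were no longer called, nor were Ilk (0.51 ± 0.20; 0.0696) and Itgb1 (0.25 ± 0.20; 0.39) among the higher genes. Each of these p-values was the highest of that gene's 30 alternatives, of which the lowest was 4.7e-04 for Itga6, 8.0e-05 for Tln2, 1.5e-04 for Itga3, 5.7e-05 for Ilk and 2.0e-04 for Itgb1. Itga7, Lims1 and Lims2 were still called lower and Itga8, Itga10, Itga11, Itgb4, Itgb5, Itgbl1, Zyx, Actn4 and Pxn still higher, and 6 genes were added (Itgb2, Itgad/Itgam and Itgb7 higher, Fermt2 and Vcl lower). The part of the detection difference in the levels was not tested. The fibroblast and cardiomyocyte marker sums given above did not overlap between Sham and MI either, and their part in the rises and falls was not tested.

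The 2 PINCH genes and the 2 talins were compared within each library as ratios of TPM, which accounts for gene length, with 0.1 TPM added to both genes of a pair in every ratio. The other planned pairs, 3 in all, each need a gene that is not analysed here. Lims1 made up 0.235, 0.186, 0.103 and 0.229 of Lims2 in Sham, 0.102, 0.0339, 0.0905 and 0.0571 in MI, 0.108, 0.0653, 0.127 and 0.00512 in MI_soft, and 0.0742, 0.233, 0.174 and 0.132 in MI_stiff. The ratio in MI lay below Sham in every library, only just for MI 1 and Sham 3. On the log2 scale it was -3.94 ± 0.72 in MI and -2.48 ± 0.55 in Sham (SD, n = 4; difference -1.46). The exact two-sided permutation p was 0.0286, the smallest that 4 against 4 libraries can give, and 0.0571 when adjusted over the 4 ratio tests.

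With the same 0.1 TPM added, Tln1 exceeded Tln2 in every library, by 4.38, 3.52, 4.57 and 3.01 times in Sham, 9.16, 20.3, 8.32 and 12.7 times in MI, 7.76, 7.73, 7.28 and 22.0 times in MI_soft, and 7.09, 5.30, 8.68 and 9.499 times in MI_stiff. All ligated libraries were above all Sham libraries. The log2 ratio was 3.57 ± 0.58 in MI and 1.93 ± 0.28 in Sham (SD, n = 4; exact permutation p = 0.0286, adjusted 0.0571). Between the gels the difference in log2 ratio was 1.61 for the PINCH pair (exact permutation p = 0.143, adjusted 0.191) and -0.41 for the talins (exact permutation p = 0.514, adjusted 0.514). MI_soft 4 holds the extreme of both ratios, and without it the PINCH difference was 0.55 and the talin difference -0.02.

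**Figure D3:**
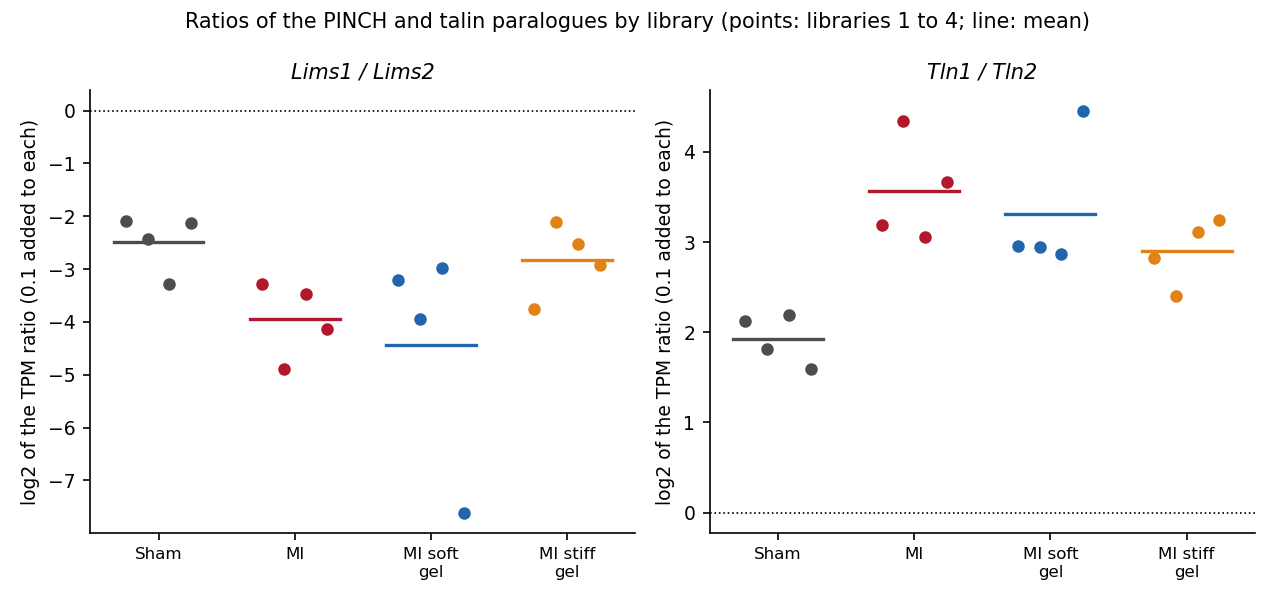
Log2 of the TPM ratio (vertical axis, 0.1 TPM added to each gene) of Lims1 to Lims2 and of Tln1 to Tln2 in each library by group; points are libraries 1 to 4 from left to right, the line is the group mean and the dotted line marks equal TPM. The MI points lie below Sham for the PINCH pair and above Sham for the talins, and the fourth MI_soft point is the extreme of both panels.

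The leukocyte integrins Itgb2, Itgad/Itgam, Itgax, Itgal, Itga4 and Itgb7, which mark immune cells in tissue, were read as a group. It counts 7 genes, of which Itgad and Itgam hold the same values. Itgb2, the beta subunit that pairs with Itgad, Itgam, Itgax and Itgal, was at 7.62, 6.05, 8.23 and 8.32 CPM in Sham, 46.8, 6.70, 5.25 and 8.11 in MI, 52.5, 72.1, 41.4 and 76.4 in MI_soft, and 124, 28.6, 198 and 127 in MI_stiff. MI 1 lay with the gel libraries and the other MI libraries lay around Sham. Itgad/Itgam was at 2.57, 4.07, 2.49 and 3.17 CPM in Sham, 22.1, 3.94, 4.32 and 1.37 in MI, 28.6, 37.4, 11.9 and 19.5 in MI_soft, and 46.0, 15.8, 85.6 and 45.2 in MI_stiff, with the same libraries high.

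Against Sham, Itgb2 rose by 3 ± 0.63 on the log2 scale with the soft gel (edgeR adjusted p = 0.00205) and by 3.98 ± 0.65 with the stiff gel (edgeR adjusted p = 3.5e-04). Itgad/Itgam rose by 2.99 ± 0.67 and 3.97 ± 0.69 (edgeR adjusted p = 0.00343 and 5.8e-04). Every gel library was above every Sham library in these genes, and the calls held in each of 30 alternatives. In MI against Sham 0 of the 7 genes were called by edgeR, and 3 had an unadjusted p under 0.05 (Itgb7, and Itgad and Itgam with their shared values). Of all 11376 tested genes 4165 were called and 5275 had an unadjusted p under 0.05, in either direction. Without MI 1, Itgax, Itgal and Itga4 were called lower in MI than in Sham, and Itgax had no count in any other MI library. The MI libraries in that fit, MI 2, MI 3 and MI 4, all had few genes detected.

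Against MI, the gels gave few calls. In MI_soft against MI edgeR called 0 of the 33 genes, where 0.0264% of all tested genes were called. At an unadjusted p under 0.05 by edgeR, 7 genes were higher and 2 lower, where 1761 of all 11376 tested genes differed in either direction. DESeq2 called 1 (Itgb2, higher) and limma-voom 0. In MI_stiff against MI edgeR called 1 gene higher, Itgb2, and 0 lower, where 0.492% of all genes were higher and 0.694% lower. Itgb2 differed by 2.82 ± 0.62 (edgeR adjusted p = 0.0387), with MI 1 above MI_stiff 2. That call was lost in 17 of 30 alternatives, and its adjusted p ran from 1.2e-04 to 0.363 over all 30 (edgeR, DESeq2 or limma).

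The count in both comparisons changed when MI 1 was left out. Without it edgeR called 10 genes in MI_soft against MI: Itgb2 (3.17 ± 0.48), Itgad/Itgam (2.90 ± 0.54), Itga4, Itgal, Itgax, Itga3 and Itga9 higher, and Ptk2 (-0.62 ± 0.15) and Vcl (-0.80 ± 0.19) lower, where 13.1% of all genes tested in that fit were called. In MI_stiff against MI it called 9: Itgb2 (4.17 ± 0.50), Itgad/Itgam (3.91 ± 0.57), Itga4, Itgax, Itga3, Itga9 and Tln2 higher and Itgb5 (-0.68 ± 0.20) lower, where 10.9% of all genes were called. The 2 comparisons share the MI libraries. Without MI 1 these were MI 2, MI 3 and MI 4, all with few genes detected, so these calls rest on such libraries alone for MI. Without MI_soft 4 edgeR called 5 in MI_stiff against MI, with Itgb2, Itgad/Itgam and Lims1 higher and Itgb5 lower, where 4.62% of all genes were called. Without all 4 libraries with few genes detected, when MI 1 alone stands for MI, 0 genes were called in either comparison.

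Itgax, a subunit of dendritic cells and macrophages, had no count in MI 2, MI 3 and MI 4 and 7.19 CPM in MI 1. It was at 1.51 to 5.91 CPM in Sham, 5.43 to 12.4 in MI_soft and 6.92 to 37.8 in MI_stiff. Itgal, which lymphocytes and other leukocytes use to bind ICAM proteins, lay at 8.24 to 21.63 CPM in Sham, 0.4189 to 22.62 in MI, 14.9 to 25.08 in MI_soft and 8.122 to 18 in MI_stiff, and was not called in any comparison. Itga4, the partner of Itgb7 and Itgb1 on leukocytes, stayed below 4 CPM in every library and was above every MI library in all of MI_stiff (log2 3.31 ± 0.98; edgeR adjusted p = 0.0963). Between the gels Itgb2 differed by 0.98 ± 0.58 (95% interval -0.24 to 2.20; edgeR adjusted p = 0.454), Itgad/Itgam by 0.98 ± 0.61 (0.465) and Itgax by 1.51 ± 0.98 (0.482), with overlapping libraries in all of them. Summed CPM of 11 macrophage and monocyte markers was 173 to 214 in Sham and 607 to 1844 in MI, with the highest in MI 1. It was 1973 to 5947 in MI_soft and 939 to 3629 in MI_stiff. The lowest MI_stiff sum was in MI_stiff 2, also lowest of its group in Itgb2. The highest sum was in MI_soft 4, where Itgb2 (76.4 CPM) was below MI_stiff 1, 3 and 4 (124, 198 and 127 CPM). MI 2, MI 3 and MI 4 had sums above Sham while their Itgb2 lay around Sham. The part of the number of leukocytes in these integrin levels was not tested.

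**Figure D4:**
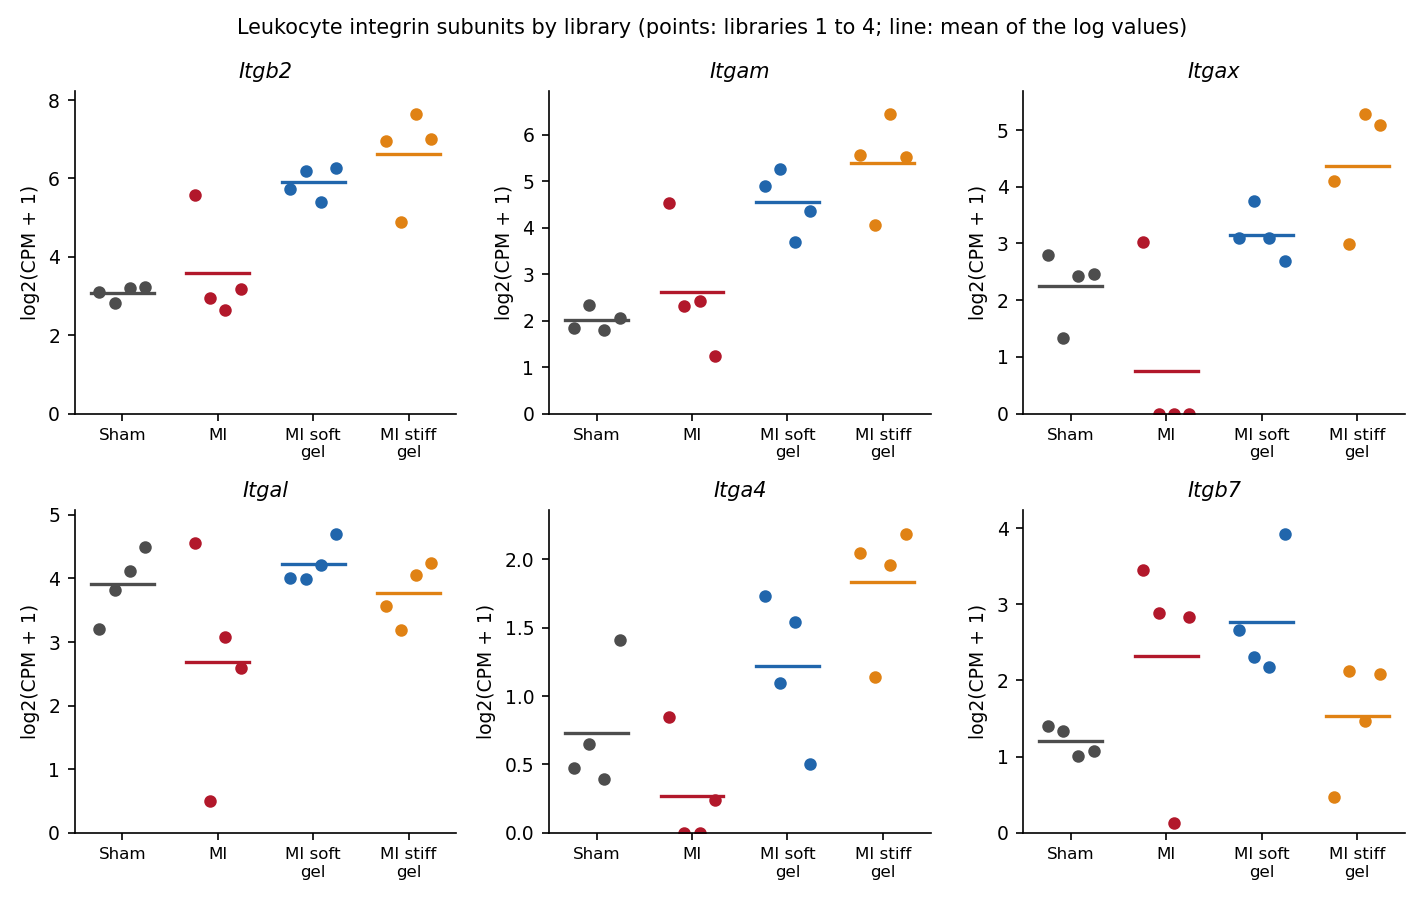
Log2(CPM + 1) (vertical axis) of 6 leukocyte integrin subunits in each library by group; points are libraries 1 to 4 from left to right and the line is the mean of the log values. In Itgb2, Itgam and Itgax the first MI point stands above the other MI points, and every gel point of Itgb2 and Itgam is above the Sham points.

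Each gel group was also set against Sham, and the 3 comparisons with Sham share its libraries. In MI_soft against Sham edgeR called 20 of the 33 genes, 14 higher and 6 lower, where 16.4% of all tested genes were higher and 9.71% lower. The 14 were Itga8 (3.44 ± 0.42), Itga11 (4.03 ± 0.51), Itga10, Itgbl1, Itgb2, Itgad/Itgam, Itgb4, Itgb5, Itgb7, Zyx, Ilk, Actn4 and Pxn, and the 6 were Lims1 (-2.32 ± 0.54), Itga6, Itga7, Tln2, Fermt2 and Vcl. Several of these were near the threshold: over 30 alternatives the call was lost in 19 for Actn4, 16 for Itgb7, 13 for Fermt2, 12 for Itgb4, 11 for Itga7, 10 for Tln2, 7 for Itga6, 6 for Pxn and 3 for Vcl. Without MI_soft 4 the calls of Itgb4 (1.06 ± 0.45; edgeR adjusted p = 0.1), Itgb7 (1.70 ± 0.82; 0.147), Tln2 (-0.91 ± 0.36; 0.0813) and Fermt2 (-0.45 ± 0.19; 0.0961) were lost, where the adjusted p over all 30 ran from 0.015 to 0.118 for Itgb4, 0.0056 to 0.152 for Itgb7, 1.6e-04 to 0.197 for Tln2 and 6.5e-04 to 0.297 for Fermt2. In MI_stiff against Sham edgeR called 10, 8 higher and 2 lower, where 12.7% of all genes were higher and 8.44% lower. The 8 were Itga8 (2.63 ± 0.41), Itga11 (3.02 ± 0.49), Itga10, Itgbl1, Itgb2, Itgad/Itgam and Zyx (0.77 ± 0.24), and the 2 were Itga7 (-1.13 ± 0.25) and Lims2 (-1.18 ± 0.24). Here the call was lost in 7 of 30 alternatives for Zyx, 2 of 30 for Itga7 and 2 of 28 for Itga10.

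The count for the stiff gel moved with the libraries in the fit. It was 19 when only MI_stiff and Sham entered the edgeR fit, 22 without the libraries with few genes detected and 23 with limma-voom quality weights. The soft gel count was 12 without MI_soft 2, 12 without Sham 2 and 13 without Sham 1. The share of all genes called in these fits is not given here, so the changes may not be particular to the 33 genes. A gene called in one gel group and not in the other is not thereby different between the gels, and none of the 33 was called in the direct comparison.

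By length-scaled level (mean TPM over 16 libraries, lowest and highest library in brackets), Itgb1 led all integrins at 180 (70.8 to 282). Among alpha subunits Itga7 led at 48.5 (23.0 to 88.0), followed by Itga6 at 8.32 (0.28 to 18.0) and Itgad/Itgam at 5.999 (0.27 to 26.6), whose ranges overlapped. Below Itga7 the second alpha subunit by group mean was Itga6 in Sham (14.8 TPM), Itga8 in MI (5.14) and Itgad/Itgam in MI_soft (6.29) and MI_stiff (14.6). Only in Sham was it apart from the next, with Itga6 at 11.41 to 17.96 TPM and Itga9 at 4.07 to 9. In the ligated groups the libraries overlapped those of the next subunit. Itga9 stood at 6.17 TPM in MI_soft and Itga6 at 10.7 in MI_stiff, within the spread of Itgad/Itgam (SD 3.14 and 9.53, n = 4). Itga4 was lowest of the tested alpha subunits at 0.339. After Itgb1 came Itgb5 at 39.5 (21.3 to 66.9) and Itgb2 at 16.1 (1.3 to 67.9), except that in MI_stiff Itgb2 (40.1 ± 25.7, SD, n = 4) and Itgb5 (37.6 ± 13.4) did not differ beyond their spread. Among plaque genes Ilk at 97.3 (47.3 to 140), Lims2 at 93.4 (49.1 to 193) and Zyx at 88.1 (30.7 to 179) led. Fermt2 at 62.5 and Vcl at 44.8 followed. The ranges of Ilk, Lims2 and Zyx overlapped, but they pool all groups. Within Sham these genes were apart, with Lims2 at 106.1 to 193.2 TPM, Ilk at 47.26 to 67.55 and Zyx at 30.7 to 39.16. Within MI Ilk (96.3 to 140.1 TPM) lay above Lims2 (49.09 to 74.26), while Zyx (55.61 to 153.7) overlapped both. In MI_soft Zyx (120.9 to 178.6 TPM) lay above Ilk (107.7 to 115.5) and Lims2 (76.06 to 123) overlapped both. In MI_stiff the libraries of these genes overlapped. Within Sham the order of the top 2 plaque genes was Lims2 (145 TPM) before Fermt2 (65.0), and within MI it was Ilk (118) before Zyx (106).

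Genes related to this machinery were read from 5 lists that exclude the 35 genes, beside 20.2% of all tested genes higher and 16.4% lower in MI against Sham. Of 26 tested matrix and cell-surface ligands of integrins, 14 rose and 0 fell in MI against Sham by edgeR, with a median log2 difference of 0.9998 against 0.06 over all tested genes. The largest rises were in Spp1 (osteopontin; 6.04 ± 0.64) and Postn (periostin; 5.26 ± 0.41), both ligands of integrins with Itgav. Of 45 other plaque and signalling genes 15 rose, led by Pak1 (3.38 ± 0.60) and Cd9 (2.25 ± 0.27), and 10 fell, among them Tns1 (-3.12 ± 0.77), with a median of 0.09.

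Of 24 genes of the Yap1 pathway and its targets, 9 rose and 4 fell, with a median of -0.16. Ccn2 (3.74 ± 0.46) and Tgfb2 (2.25 ± 0.51) led the rises, and Mob1b (-4.27 ± 0.89) and Crim1 (-2.18 ± 0.55) the falls, while Yap1 itself fell as given above. Of 12 genes of the dystrophin complex, the other anchor of the costamere, 0 rose and 7 fell, led by Sntb1 (-4.21 ± 0.87) and Sgcb (-2.90 ± 0.73), with a median of -1.12. Of 9 stretch-activated channels 4 rose, led by Trpc6 (2.43 ± 0.51) and Trpv2 (1.67 ± 0.51), and 2 fell, Kcnk2 (-3.21 ± 0.31) and Tmem63b (-1.43 ± 0.27), with a median of 0.54. Between stiff and soft gel 0 of the 116 tested genes of the 5 lists were called by edgeR, while 7 were higher and 13 lower at an unadjusted p under 0.05, where all tested genes gave 5.14% and 9.19%. For these lists only the main edgeR fit is given, and the list medians ran from -0.22 for the dystrophin complex to 0.10 for the channels. Against MI, the stiff gel gave calls for Spp1 (2.20 ± 0.51) and Trpv2 (2.56 ± 0.50), higher, and Ccn1 (-1.28 ± 0.25), lower. The soft gel gave 0 calls against MI. There 9 of the 116 genes were higher and 8 lower at an unadjusted p under 0.05, where 1761 of all 11376 tested genes differed in either direction. Ccn1, a secreted matrix protein and Yap1 target, was named after its value was seen.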

How the data were processed

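The submitters' processing notes name STAR 2.7.3a, RSEM 1.3.1 and the rat build rn7. Per these notes and the file headers, the authors deposited RSEM's estimated counts per gene and TPM (which the authors scaled for gene length and depth), 1 column per library. No source used here gives the annotation, strand setting or filters, so genes that overlap or share sequence are uncertain. The 17085 genes are given by symbol. Counts, of which 0.785% were not whole, were rounded.

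The 33 genes were tested within a fit to all 11376 genes that passed edgeR's filterByExpr (edgeR 4.0.16 in R 4.3.3, TMM scaling, quasi-likelihood test, 1 coefficient per group over 16 libraries, common biological coefficient of variation 0.403). P-values were adjusted by Benjamini-Hochberg over all of them, and a call is an adjusted p under 0.05. CPM are edgeR's counts per TMM-scaled library total. Alternatives used DESeq2 1.42.0, limma 3.58.1 on counts and on log2(TPM + 1) or log2(TPM + 0.1), other scalings and filters, removal of 13 mitochondrially encoded genes (picked from their plain symbols, since the planned name prefix matched none), 2 groups only, the replicate number as a block, and each library or the 4 libraries with few genes left out. TPM ratios used exact two-sided permutation tests (scipy 1.17.1), adjusted over 4 tests where 10 had been planned, since 3 of 5 pairs need genes not analysed here.

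All of the chosen genes could be named. Values in every library are given for the 8 with the smallest p between the gels, the 5 called with the largest difference each way in MI against Sham, and those with the highest TPM (3 alpha, 3 beta, 5 plaque). Other lists name at most 4 genes by size of difference. The genes, lists and the 4 libraries left out were chosen with earlier results of these data known. Titles number libraries 1 to 4 in each group. Over 24 same-numbered pairs, deviations correlated between -0.285 and 0.176, with 5 over 0.1, so the numbers were not taken as pairs. Promoter windows came from RefSeq (GRCr8), matched by symbol.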

Additional observations from a re-analysis of the deposited data

Results flagged for a closer look

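Among the 33 tested genes in 4 groups (132 sets of 4 libraries), 11 held a library whose gap to its nearest neighbour was too large a part of the whole range of the 4 for Dixon's test at the 95% level, and chance gives about 1 in 20 such sets. MI_soft 4 was the outlying library in 3 of them. It was low in Lims1 (0.7523 CPM, others 6.92 to 10.16), Tln2 (9.445 CPM, others 22.11 to 26.24) and Fermt2 (95.29 CPM, others 171.3 to 192.8). This library also had the fewest genes detected of its group.

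In MI, the first library was low in Ptk2 (59.75 CPM, others 88.47 to 94.29) and was the only one with any Itgax (7.192 CPM, others 0). MI 2 was low in Itga6 (2.597 CPM, others 14.07 to 16.22) and MI 3 was low in Itgb7 (0.09382 CPM, others 6.105 to 9.958).

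In the remaining sets, MI_soft 2 was low in Itga3 (8.137 CPM, others 13.21 to 13.55), MI_stiff 2 was high in Itgb4 (36.99 CPM, others 13.44 to 14.84), MI_stiff 1 was low in Yap1 (5.129 CPM, others 18.22 to 19.41) and Sham 3 was high in Lims2 (384.7 CPM, others 267.6 to 273.6).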

How the results depend on the processing

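With 4 libraries a group and estimated counts, small differences in weakly counted genes (Itga10, Itga4, Itgb7) could not be resolved. A tally was made of 1732 values from 58 results of named genes over up to 30 alternatives. These results were the ones called in the main fit and those with the smallest p between the gels. Of the values, 1577 kept their direction and their side of the threshold, 148 lost the call, 7 gained one and none reversed. All 7 gains were between the gels. Other results not called in the main fit were left out, so the tally does not show how often calls were gained. Such gains against MI, and in MI against Sham, are given above.

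The count of the 33 genes called between stiff and soft gel was 0, but 1 with DESeq2, 3 with limma-voom quality weights and 3 without the 4 libraries with few genes detected. MI_soft against MI gave 0, 1 with DESeq2 and 0 to 10 leaving out 1 library. MI_stiff against MI gave 1, but 5 with DESeq2, 0 with no low-count filter, 4 on log2(TPM + 1), 2 on log2(TPM + 0.1), 2 on log2(TPM + 1) with no filter, 0 with 2 groups only, 0 with the replicate block, 0 without the 4 libraries and 0 to 9 leaving out 1. MI_soft against Sham gave 20, but 11 on log2(TPM + 1), 10 on log2(TPM + 0.1), 11 with no filter and 12 to 20 leaving out 1. MI_stiff against Sham gave 10, but 23 with quality weights, 19 with 2 groups only and 22 without the 4 libraries. The PINCH log2 ratio between MI and Sham was -0.81 without the 4 libraries. Beside most of these counts the share of all genes called in the same fit is not given, so the changes may not be particular to the 33 genes. The cause of these changes was not tested.

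On the TPM scales the median of all genes moved to 0.142 and 0.182 between the gels, 0.218 and 0.288 for MI_stiff against MI, and 0.229 and 0.273 for MI_stiff against Sham (1 and 0.1 added). With the replicate block the counts were otherwise 0 between the gels, 19 for MI against Sham, 0 for MI_soft against MI, 14 for MI_soft against Sham and 10 for MI_stiff against Sham.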
